A study of Mus musculus with 24 samples.

Results

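The Notch genes described here are 10 rows of the deposited mouse liver count table: the ligands Jag1, Jag2 and Dll4, the receptors Notch1, Notch2, Notch3 and Notch4, and the transcriptional targets Hes1, Hey1 and Heyl. The rule that picks them uses the gene symbol and no measured value, although the list was drawn up with earlier results of these data known, and they are 10 of the 56205 gene rows in the table. Whole livers of 24 C57BL/6J mice were sequenced as poly(A) RNA after 20 weeks on diet: 12 mice received food deficient in methionine and choline (MCD diet) and 12 received its control diet, with no transgene or other agent in either group. Mice of both sexes were used in equal numbers per diet, but no library is labelled with a sex, a litter or a sequencing batch, and the age at the start of this diet is not given in the sources used here. Mice on an MCD diet are a common model of steatohepatitis and liver fibrosis. The study's methods list this diet as high in fat, and its results also speak of a choline-deficient diet under another name (CDAHFD); it is called MCD here, as in the labels.

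Notch signalling passes between cells that touch. A ligand of the Jagged or Delta-like family on one cell binds a Notch receptor on its neighbour, the receptor is cut by ADAM proteases and then by gamma-secretase, and the freed intracellular part enters the nucleus, where it joins the DNA-binding protein RBPJ and switches on genes such as those of the Hes and Hey families. In liver the pathway is best known for its part in bile duct formation, which depends on Jag1 and Notch2, and for its part in endothelial cells, where Dll4, Notch1 and Notch4 are typical members.

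Sequencing depth was similar in both diets, with 16793207 to 24915175 counts per control library and 16388650 to 24577848 per MCD library. The liver marker Alb averaged 79750 CPM in control and 51820 CPM in MCD, where CPM is the usual per-library scaling of counts, here with library sizes adjusted by TMM, the trimmed mean of M-values. The TMM factors of the 2 diets did not overlap, at 0.642 to 0.973 in control and 1.07 to 1.26 in MCD, and control replicate 12 stood apart with the lowest factor. Because of this gap, every fold change depends on the scaling: the median log2 fold change over all 14109 genes tested was -0.10 with TMM factors, -0.04 with relative log expression factors, 0.05 with upper-quartile factors and 0.27 with total counts alone. Over all genes the calls were 2712 higher and 2688 lower with TMM factors, 3261 and 1710 with upper-quartile factors, and 4539 and 848 with total counts alone.

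The first question was which of the Notch genes differed between the diets. All 10 passed the low-count filter. Jag1, Jag2, Hes1 and Hey1 were higher in MCD livers, and Dll4, Notch1, Notch2 and Notch4 were lower. Notch3 and Heyl did not pass the test. A gene was called when its false discovery rate (FDR, Benjamini-Hochberg) was at most 0.01 and its log2 fold change was beyond 0.5 in either direction in edgeR's quasi-likelihood test over all 24 libraries. Thus 4 of 10 members were called higher, where 19.2% of all genes tested were, and 4 of 10 lower, where 19.1% were. The median log2 fold change of the 10 was 0.31, beside -0.10 over all genes. In 0 of the 10 did the diets separate completely, although 9.5% of all genes had every MCD library above every control library and 4.89% had every MCD library below. With total counts alone 5 members were higher and 1 was lower, and with either relative log expression or upper-quartile factors 4 were higher and 2 lower. None of the 10 changed sign under these scalings. Whole liver was sampled, so fewer cells of a type and less RNA per cell cannot be told apart in any of these values.

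**Figure D1:**
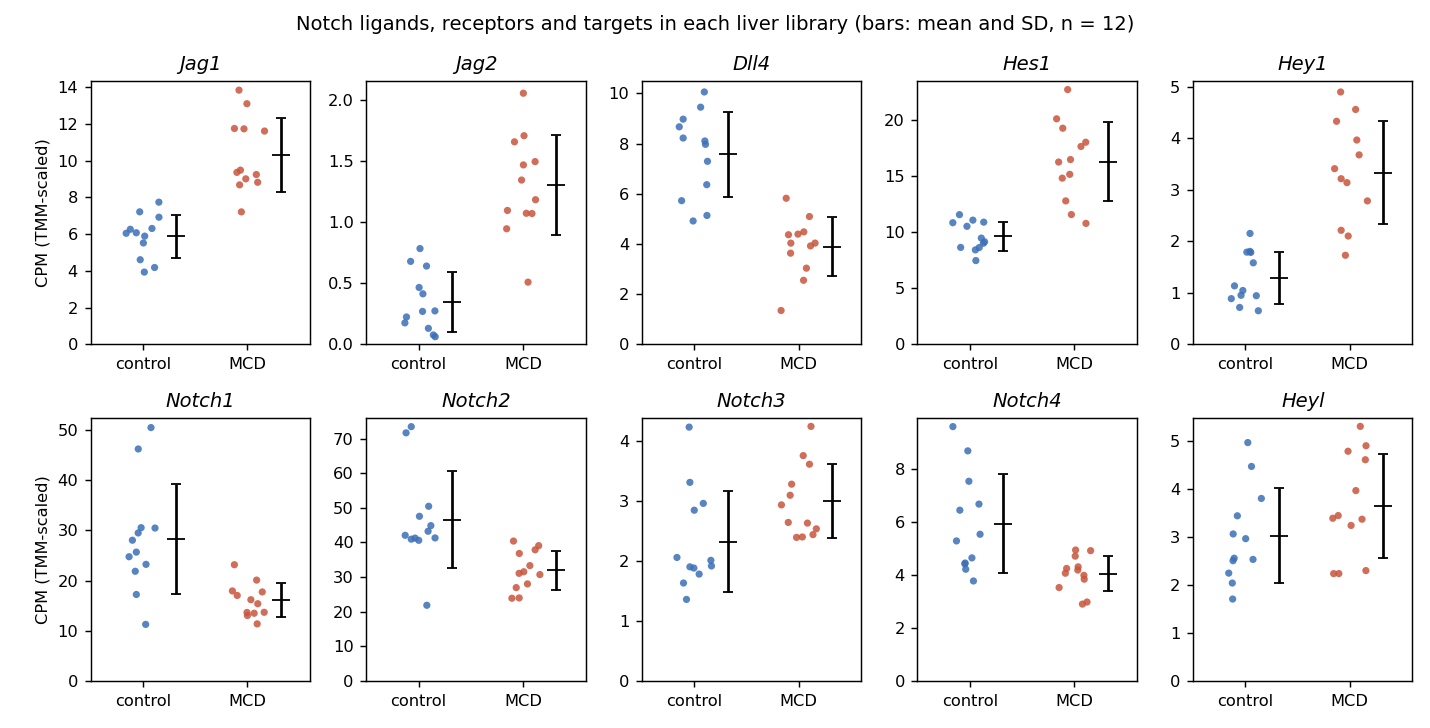
TMM-scaled CPM of the 10 Notch genes in each library, with control and MCD libraries as points on the horizontal axis and the mean and SD of 12 libraries as bars; each vertical axis starts at 0. Jag1, Jag2, Hes1 and Hey1 lie higher in MCD with 10 or 11 of 12 MCD libraries above every control, Dll4 lies lower with 10 of 12 below, and the points of Notch3 and Heyl overlap.

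Among the ligands, Jag1 and Jag2 rose and Dll4 fell. Jag1 (ENSMUSG00000027276, GRCm38 chr2:137081456-137116644, minus strand), the Jagged ligand that Alagille syndrome links to bile duct development, was counted 52 to 141 times per control library and 145 to 326 times per MCD library. Its lowest, median and highest levels were 3.93, 6.06 and 7.74 CPM in control and 7.21, 9.43 and 13.9 CPM in MCD. Of the MCD libraries, 11 of 12 lay above every control, and only MCD replicate 1 fell within the control range. The means of 5.89 ± 1.17 CPM and 10.3 ± 2.02 CPM (SD, n = 12 each) gave a 1.75-fold rise (log2 fold change 0.81, SE 0.12, edgeR FDR = 1.56e-06).

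Jag2 (ENSMUSG00000002799, GRCm38 chr12:112907819-112929776, minus strand), the second Jagged ligand, was scarce. Control livers held 1 to 14 counts and MCD livers 14 to 53, so the control values rest on few reads. In 3 control livers, replicates 6, 10 and 12, it had fewer than 3 counts, a level taken as unresolved. From lowest over median to highest, its levels were 0.0614 (1 count, unresolved), 0.271 and 0.783 CPM in control and 0.508, 1.26 and 2.06 CPM in MCD. Again 11 of 12 MCD libraries were above every control, with MCD replicate 5 the exception. The fitted rise was 3.62-fold (log2 fold change 1.85, SE 0.29, 95% confidence interval 1.25 to 2.46, edgeR FDR = 5.16e-06), with the widest interval of the 10 genes.

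Dll4 (ENSMUSG00000027314, GRCm38 chr2:119325784-119335962, plus strand), a Delta-like ligand typical of arterial and sinusoidal endothelium, went the other way. It was counted 65 to 178 times per control library and 37 to 119 times per MCD library. The lowest, median and highest control livers had 4.92, 8.04 and 10.1 CPM, and those on MCD had 1.34, 4.03 and 5.82 CPM. In 10 of 12 MCD livers the level was below every control. MCD replicate 2 was the lowest, and MCD replicates 9 and 11 reached into the control range. The mean of 7.57 ± 1.70 CPM fell to 3.89 ± 1.17 CPM, a 1.95-fold drop (log2 fold change -0.96, SE 0.17, edgeR FDR = 1.78e-05). Without MCD replicate 2 the log2 fold change was -0.84. An antisense gene, Gm14207, covers 5.56% of the Dll4 exon bases. The supplement names a stranded library kit in a section that goes on to human reads, and whether these mouse libraries were stranded and counted by strand is not stated, which bears on every antisense overlap given here.

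Jag1 and Dll4 lie on the same chromosome and moved in opposite directions, so their start regions are shown for comparison. Each runs from 250 bases before to 50 bases after the RefSeq start (GRCm38.p6), 5′ to 3′ on the gene's strand, in lower case with motif matches in capitals. The Jag1 window is chr2:137116471-137116770 (minus strand) and the Dll4 window is chr2:119325534-119325833 (plus strand).
Jag1: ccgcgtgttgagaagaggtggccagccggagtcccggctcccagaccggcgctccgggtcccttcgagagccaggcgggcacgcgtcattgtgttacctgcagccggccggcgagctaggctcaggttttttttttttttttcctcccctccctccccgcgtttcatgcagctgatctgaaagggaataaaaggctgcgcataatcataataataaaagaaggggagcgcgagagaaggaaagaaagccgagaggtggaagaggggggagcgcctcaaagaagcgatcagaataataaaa
Dll4: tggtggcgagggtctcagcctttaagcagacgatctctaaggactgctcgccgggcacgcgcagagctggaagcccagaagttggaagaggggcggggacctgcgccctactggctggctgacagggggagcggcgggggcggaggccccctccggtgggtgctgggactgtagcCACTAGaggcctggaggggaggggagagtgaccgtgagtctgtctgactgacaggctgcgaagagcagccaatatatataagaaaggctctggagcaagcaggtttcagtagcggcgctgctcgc
Both windows were rich in CpG dinucleotides, with 22 in Jag1 and 17 in Dll4 against a median of 7 over 32851 RefSeq windows of the same length. Their GC contents were 55.7% and 63.7%, against a median of 52.7%. RefSeq windows were matched for 7 of the 10 members and not for Hes1, Hey1 or Heyl. Letters were searched on both strands for the RBPJ core TGGGAA, the N-box CACNAG that Hes proteins bind, the E-box CACGTG, the AP-1 site TGANTCA, the TEAD site CATTCC and the ETS core CCGGAA, none of which contains another. The N-box was in 4 of 7 member windows (Notch1, Notch2, Notch3 and Dll4) and in 42.5% of all windows. In Dll4 it reads CACTAG, the capitals above, and starts 75 bases before the gene start. Jag1 held none of the letters searched, which says only that they are absent from this window. The RBPJ core was in 0 of 7 member windows and 25.6% of all windows. TEAD letters were in Notch1 and Notch4 (14.7% of all windows) and AP-1 letters in Notch4 (7.81%), while E-box (7.15%) and ETS letters (14.9%) were in none of the 7.

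Of the 4 receptors, Notch1, Notch2 and Notch4 fell and Notch3 did not pass the test. Notch2 (ENSMUSG00000027878, GRCm38 chr3:98013527-98150361, plus strand), the receptor needed for bile duct formation, had the highest CPM of the 10 genes in both diets. Lowest, median and highest levels were 21.9, 42.7 and 73.4 CPM in control and 23.9, 31.3 and 40.4 CPM in MCD. In control, 11 of 12 livers lay above every MCD liver, while control replicate 12 lay below them all and control replicates 3 and 6 stood far above the others. The mean went from 46.6 ± 13.9 to 31.97 ± 5.68 CPM (1.46-fold lower, log2 fold change -0.54, SE 0.14, edgeR FDR = 0.00131). This value is close to the fold limit and was inside it with relative log expression factors (-0.49), with upper-quartile factors (-0.40), with total counts (-0.21), with DESeq2 (-0.49) and with at least 10 counts in every library (-0.46). Leaving out control replicate 3 (-0.43), control replicate 6 (-0.48) or MCD replicate 2, 6, 7 or 10 (-0.47 to -0.50) ended the call too. A gene model of uncertain type, Gm42820, shares 5.02% of the Notch2 exon bases on the same strand.

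Notch1 (ENSMUSG00000026923, GRCm38 chr2:26457903-26516663, minus strand), the broadly used receptor, fell more. Lowest, median and highest levels were 11.3, 26.9 and 50.5 CPM in control and 11.4, 15.8 and 23.2 CPM in MCD. Here 9 of 12 control livers were above every MCD liver, control replicates 3 and 6 were again the highest, and control replicate 12 was again the lowest. The mean dropped from 28.3 ± 10.98 to 16.1 ± 3.35 CPM, 1.76-fold (log2 fold change -0.82, SE 0.17, edgeR FDR = 0.000197). Leaving out control replicate 3 gave -0.67, and total counts gave -0.50 with an FDR of 0.0334, which ends the call. The antisense genes 0610009E02Rik and Gm13568 cover 7.5% and 2.91% of its exon bases.

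Notch4 (ENSMUSG00000015468, GRCm38 chr17:34564268-34588503, plus strand), a receptor of endothelial cells, had lowest, median and highest levels of 3.78, 5.42 and 9.62 CPM in control and 2.91, 4.13 and 4.95 CPM in MCD. The ranges overlapped, with 7 of 12 control livers above every MCD liver and 3 of 12 MCD livers below every control liver. Means were 5.95 ± 1.88 and 4.06 ± 0.669 CPM, and the drop was 1.47-fold (log2 fold change -0.55, SE 0.14, edgeR FDR = 0.00169). Like Notch2 it was inside the fold limit with relative log expression factors (just, at -0.50), upper-quartile factors (-0.41), total counts (-0.22) and at least 10 counts in every library (-0.48). Leaving out control replicate 3 (-0.43), control replicate 4 (-0.50), MCD replicate 2 (-0.48) or MCD replicate 7 (-0.50) ended the call too.

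Notch3 (ENSMUSG00000038146, GRCm38 chr17:32120820-32166852, minus strand), the receptor of smooth muscle cells and pericytes, was the one receptor with a positive difference. Lowest, median and highest levels were 1.36, 1.97 and 4.24 CPM in control and 2.40, 2.79 and 4.25 CPM in MCD. Although 8 of 12 control livers lay below every MCD liver, control replicate 4 was nearly as high as the highest MCD liver. The difference of 0.36 on the log2 scale (SE 0.16, 95% confidence interval 0.03 to 0.70, edgeR FDR = 0.0551) was not called with TMM factors, and with total counts it was (0.69, FDR = 0.00279). The antisense gene Gm17276 covers 6.03% of its exon bases. As a share of the summed level of the 4 receptors per length, which needs no scaling between libraries, Notch3 made up 3.01% to 6.82% (median 3.70%) in control and 5.25% to 9.87% (median 7.57%) in MCD, with 10 of 12 MCD livers above every control. The share of Notch2 overlapped between the diets, with medians of 59.2% and 59.9%, and that of Notch1 had medians of 27.1% and 23.0%. These shares were chosen after the levels were seen and carry no test.

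Of the targets, Hes1 and Hey1 rose and Heyl did not pass the test. Hes1 (ENSMUSG00000022528, GRCm38 chr16:30064384-30067796, plus strand), a basic helix-loop-helix repressor that many other signals also induce, had lowest, median and highest levels of 7.47, 9.31 and 11.6 CPM in control and 10.8, 16.4 and 22.7 CPM in MCD. In 11 of 12 MCD livers it was above every control liver. MCD replicate 1 was within the control range, as it was for Jag1. Means of 9.65 ± 1.30 and 16.3 ± 3.54 CPM gave a 1.69-fold rise (log2 fold change 0.76, SE 0.11, edgeR FDR = 1.08e-06).

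Hey1 (ENSMUSG00000040289, GRCm38 chr3:8663359-8667256, minus strand), a related repressor, was low, with 11 to 40 counts per control library and 37 to 135 per MCD library. Lowest, median and highest levels were 0.650, 1.09 and 2.15 CPM in control and 1.73, 3.32 and 4.90 CPM in MCD. MCD replicates 9 and 12 overlapped the controls and the other 10 did not. MCD replicate 2, the lowest liver for Dll4, was the highest for Hey1. The rise was 2.58-fold (log2 fold change 1.37, SE 0.21, edgeR FDR = 2.58e-06).

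Heyl (ENSMUSG00000032744, GRCm38 chr4:123233556-123249875, plus strand), the third Hey family member, is known as a Notch3 target in mural cells. Lowest, median and highest levels were 1.71, 2.76 and 4.97 CPM in control and 2.24, 3.42 and 5.31 CPM in MCD. Both ranges overlapped almost fully, and the log2 difference of 0.27 (SE 0.18, 95% confidence interval -0.10 to 0.64, edgeR FDR = 0.198) was not called under any of the alternatives run. Its interval still holds differences as large as some that were called for other members.

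**Figure D2:**
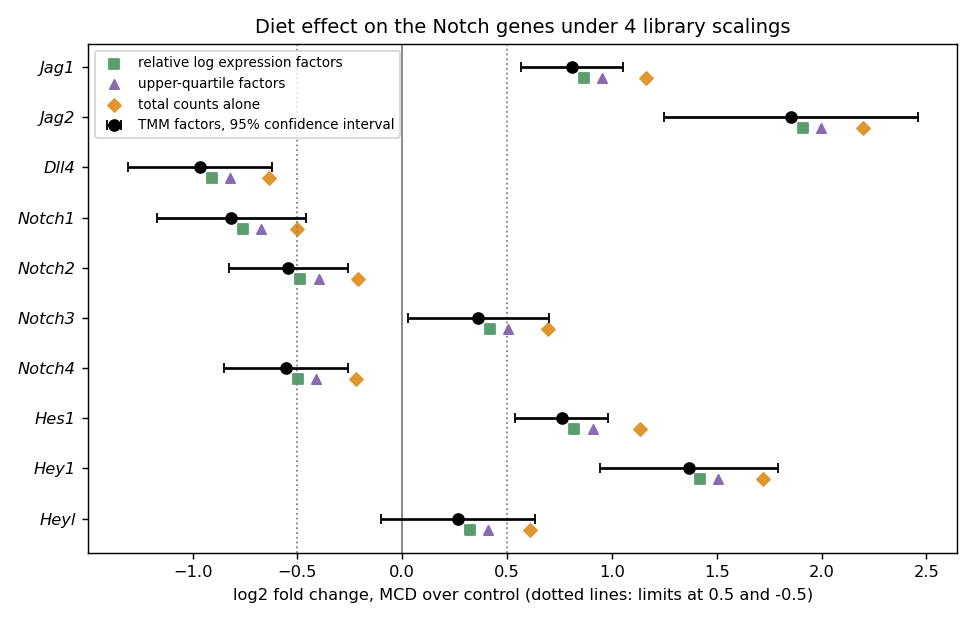
Log2 fold change of MCD over control for the 10 Notch genes on the horizontal axis, with TMM factors (black points, bars are 95% confidence intervals) and with relative log expression, upper-quartile or no factors (coloured points). Total counts alone shift every gene to the right, bringing Notch2 to -0.21 and Notch4 to -0.22, inside the dotted limits at 0.5, while Jag1, Jag2, Hes1, Hey1 and Dll4 stay beyond them.

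Levels of different genes were compared per length, as TMM-scaled CPM per kilobase of exon. Hes1 and Notch2 were the highest in control livers, at 4.74 ± 0.636 and 4.32 ± 1.29, followed by Notch1 at 1.99 ± 0.771 and Dll4 at 1.97 ± 0.441. Jag1 came next at 1.01 ± 0.202, then Notch4 at 0.738, Heyl at 0.592, Hey1 at 0.394 and Notch3 at 0.288, and Jag2 was last at 0.0501. Each of these genes overlapped its neighbour in the order, with the exception of Jag2, whose highest control library (0.112) was below the lowest Notch3 library (0.168).

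In MCD livers the order per length differed. Hes1 stood alone at 8.01 ± 1.74, with its lowest library (5.30) above the highest Notch2 library (3.75), and Notch2 followed at 2.96 ± 0.526. Jag1 took the third place at 1.77 ± 0.347, above Notch1 at 1.13 ± 0.236. Hey1 (1.02) and Dll4 (1.01) had almost the same level, and Heyl (0.715), Notch4 (0.503), Notch3 (0.371) and Jag2 (0.187) completed the order. Jag1 thus ranked below Dll4 in control and above it in MCD. The order was the same with the longest transcript as the length and with total counts as the scale.

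**Figure D3:**
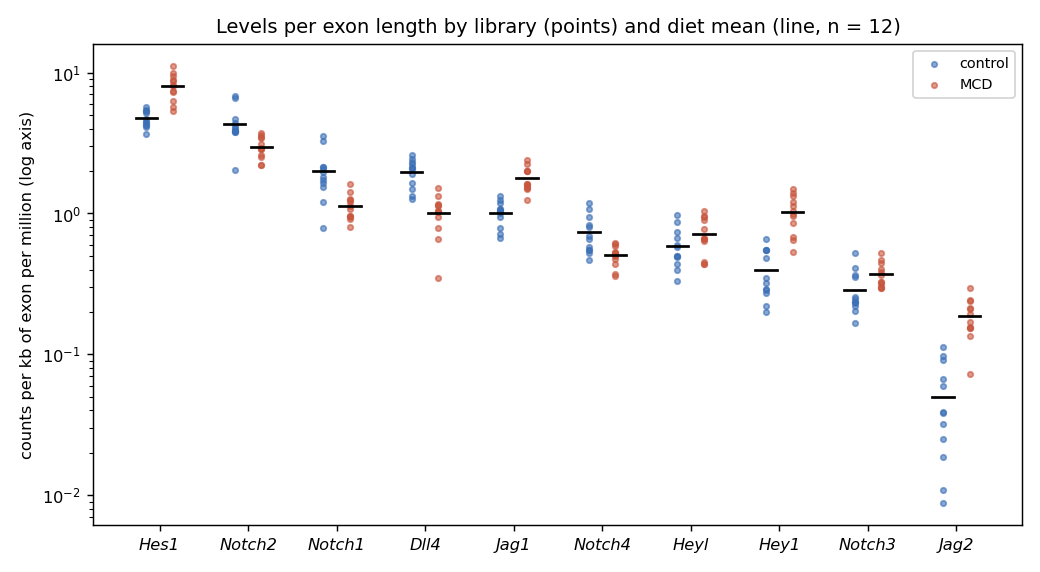
Level of each Notch gene per length (TMM-scaled CPM per kilobase of exon, log axis) in each control and MCD library, with genes in their control order and a line at the mean of 12 libraries. Jag1 and Dll4 exchange places between the diets, from 1.01 and 1.97 in control to 1.77 and 1.01 in MCD, and Hes1 is the highest in both.

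Since ratios of 2 counts within 1 library are free of the scaling, the opposite movement of the ligands was also read this way, in ratios chosen after the values were seen and given with no test. Jag1 counts per Dll4 count were 0.508 to 1.18 (median 0.816) in control and 1.82 to 6.57 (median 2.45) in MCD. All 12 MCD livers were above every control liver, a separation that neither gene showed by itself. Hes1 counts per Notch1 count had medians of 0.357 in control and 1.05 in MCD, with 6 of 12 MCD livers above every control. Hey1 counts per Heyl count had medians of 0.457 and 0.960, with 7 of 12 above. Notch1 counts per Notch2 count overlapped, with medians of 0.608 and 0.514.

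**Figure D4:**
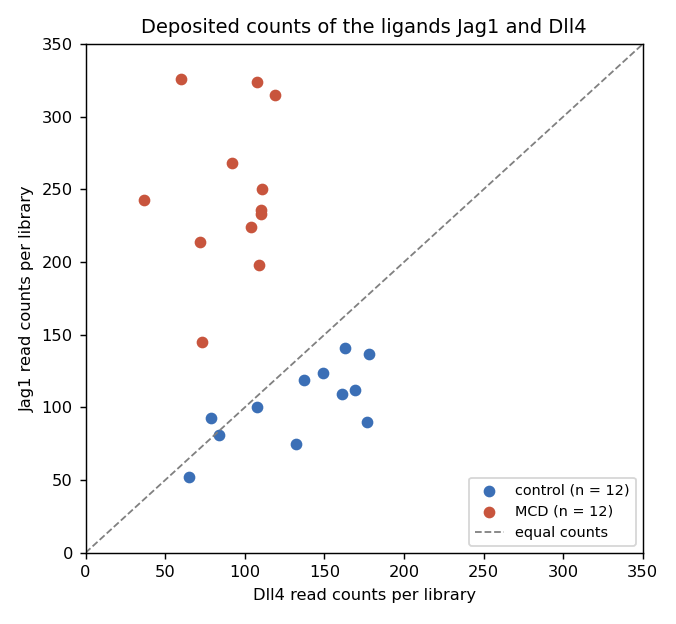
Deposited read counts of Dll4 (horizontal axis) and Jag1 (vertical axis) in each of the 24 libraries, with a dashed line at equal counts. All 12 MCD libraries lie above the line, at 1.82 or more Jag1 counts per Dll4 count, and the 12 control libraries lie around or below it, at 1.18 or less.

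Markers of the cell types that use these genes moved with the diets. Marker calls were made with TMM factors only, and how far they depend on the scaling was not tested. Over all genes tested, 19.2% were called higher and 19.1% lower. Endothelial markers were lower: 7 of 9 fell and 0 rose (among them Kdr at -1.12, Tek at -1.08 and Cdh5 at -0.96 on the log2 scale; Vwf at 0.05 was not called), and their summed level went from a range of 222.3 to 329.7 CPM in control to 135.7 to 207.2 CPM in MCD. Per 100 counts of these 9 markers, Dll4 had medians of 2.64 in control and 2.39 in MCD, with 4 of 12 MCD livers below every control. Notch1 had medians of 9.04 and 8.88 by the same measure, and Notch4 1.94 and 2.39, both with overlapping ranges. These ratios were chosen after the values were seen and carry no test, and the part of endothelial cells in the CPM differences was not tested.

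Of 7 cholangiocyte markers 6 were higher, each by more than any of the 10 Notch genes. On the log2 scale Epcam was at 3.67, Krt7 at 3.48 and Krt19 at 2.99. The summed level of the 7 went from 48.49 to 165.9 CPM in control to 477 to 935.8 CPM in MCD. Most of this sum was Spp1 alone, with a mean of 58.66 of 88.01 CPM in control and 592.5 of 680.6 CPM in MCD. Jag1 counts per count of Krt7, Krt19 and Epcam had medians of 1.39 in control and 0.225 in MCD, and all 12 MCD livers were below every control. The same ratio of Hes1 had medians of 2.26 and 0.350, again with all 12 below, and that of Hey1 0.349 and 0.0629 with 11 of 12 below. Hence Jag1, Hes1 and Hey1 rose less than these 3 keratin and adhesion genes did.

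Mesenchymal markers were mostly higher, with 7 of 9 up and Lrat, a marker of quiescent stellate cells, down (-0.93), and a summed level of 213.1 to 534.9 CPM in control and 696.8 to 1183 CPM in MCD. Of 4 smooth muscle markers tested, Acta2, Tagln and Lmod1 rose and Myh11 fell, with summed levels of 8.646 to 31.87 and 19.95 to 43.69 CPM over the 6 listed. Monocyte and macrophage markers rose in 6 of 6 (10.08 to 65.44 CPM in control, 594.9 to 1328 in MCD), lymphocyte markers in 4 of 6 (2.828 to 8.67 and 9.44 to 21.06), while Kupffer cell markers fell in 4 of 5 (137.3 to 422.2 and 81.19 to 296.5) and hepatocyte markers in 3 of 7 (70600 to 171400 and 53630 to 78850). Each listed marker had a mean above 0 CPM in both diets. Their part in the Notch gene differences was not tested.

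For 3 pairs of members, also chosen with earlier results known, levels were compared across the 12 livers of each diet, on log2 CPM. This gave 6 relations with two-sided permutation tests of 100000 resamples. The tests compare r with no relation, and whether a pair was closer than other pairs of genes was not tested. The libraries share depth and scaling, and Notch4 reached r = 0.836 with Myh9 over 24 libraries after diet means were removed. In control livers Notch4 and Dll4 varied together (Pearson r = 0.796, p = 0.0026, adjusted over the 6 relations 0.0078; Spearman rho = 0.769, p = 0.00517, adjusted 0.031). So did Notch3 and Heyl (r = 0.795, p = 0.00209, adjusted 0.0078; rho = 0.692, p = 0.0163, adjusted 0.0489). Without the 2 livers farthest from the median of the first gene, r was 0.709 for Notch4 with Dll4 and 0.628 for Notch3 with Heyl, with unadjusted p of 0.0259 and 0.0522 and an adjusted p of 0.104 for both, so with 10 livers neither passed the adjusted threshold. In MCD livers r was 0.518 for Notch4 with Dll4 (p = 0.0844, adjusted 0.135; rho = 0.462, p = 0.134, adjusted 0.201) and 0.508 for Notch3 with Heyl (p = 0.09, adjusted 0.135; rho = 0.476, p = 0.119, adjusted 0.201). Without the 2 farthest livers these became -0.0256 and 0.668. Jag1 and Hes1, which both rose with the diet, showed no relation within a diet, with r of -0.131 in control (p = 0.683, adjusted 0.683; rho = -0.168, p = 0.604, adjusted 0.621) and 0.181 in MCD (p = 0.574, adjusted 0.683; rho = 0.161, p = 0.621, adjusted 0.621), and 0.235 and 0.266 without the 2 farthest livers. With total counts as the scale r was 0.481 for Jag1 with Hes1 in control.

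The rest of the pathway was described from a list of 62 further genes in 8 roles, of which 56 were tested. By the same rule 15 of 56 were higher and 14 of 56 lower, where 19.2% and 19.1% of all genes tested were, and their median log2 fold change was 0.02, beside -0.10 over all genes. Their 15 higher calls held under all 4 scalings, and 2 of the 14 lower calls did, those of Gata2 and Hes6. With total counts alone 21 of 56 were higher and 2 lower, beside 4539 higher and 848 lower of all 14109 genes. Dll3, Dlk1, Dlk2, Hes5, Hes7 and Hey2 were too low to be tested. Every MCD library was above every control for Neurl1a, Aph1c, Numbl, Dtx3, Dtx4 and Sox9, and below every control for Furin and Aes. Over all genes tested, 9.5% separated upward in this way and 4.89% downward.

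On the sending side, Dll1, the one further ligand tested, was lower (5.76 ± 2.71 CPM in control, 3.38 ± 0.682 in MCD, log2 fold change -0.77, edgeR FDR = 0.00149), but the antisense RNA A930024N18Rik covers 20.55% of its exon bases. Of 5 ubiquitin ligases for ligand endocytosis, Neurl1a rose 5.37-fold (log2 fold change 2.43; a gene model of uncertain type shares 9.47% of its exon bases), with all 12 MCD livers above every control, and Neurl1b rose 1.79-fold. Mib1, the ligase that most ligands need, fell by 0.52 and Neurl2 by 0.67 on the log2 scale. The protein-coding gene Ctsa covers 31.95% of the Neurl2 exon bases on the opposite strand, and if strand was not used its reads there could not be told apart from those of Neurl2.

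On the receiving side, the Fringe glycosyltransferases Mfng and Lfng, which tune receptors between Delta-like and Jagged ligands, rose by log2 0.70 and 0.64. The other Fringe gene, Rfng, was at -0.29 (FDR = 0.034) and was not called. Among 10 genes for receptor cleavage, the gamma-secretase subunit Aph1c rose 5.51-fold (1.22 ± 0.742 to 6.84 ± 1.20 CPM) with no overlap of the diets, Aph1b rose 1.46-fold and the convertase Furin fell 1.49-fold, while Adam10 (0.23), Adam17 (0.27) and Ncstn (0.02) were not called. Aph1b and Aph1c are near-identical copies, so reads may have been split between them or left out.

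In the nucleus, Rbpj was at 20.1 ± 3.56 CPM in control and 22.4 ± 1.26 in MCD and was not called (log2 fold change 0.15, edgeR FDR = 0.136). Of its coactivators, Maml2 (0.64) and Maml3 (0.59) rose, and Ep300 (-0.55), Kat2b (-0.53) and Maml1 fell. Among 9 corepressor genes, Spen (-0.64) and Aes (-0.63) fell and 0 rose with TMM factors. With total counts alone Spen (-0.31) and Aes (-0.20) were not called, and Ctbp1 (0.58) and Hdac1 (0.62) were called higher.

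Genes for inhibition and turnover held some of the largest differences. The Deltex genes rose in 3 of 4 cases: Dtx1 at 2.04, Dtx3 at 1.82 and Dtx4 at 1.20 on the log2 scale. Numbl, related to the inhibitor Numb, rose by 1.77, from 2.22 ± 0.831 to 7.59 ± 2.14 CPM. Numb itself and the ubiquitin ligase Itch were called lower. Nrarp, a feedback inhibitor and a Notch target itself, was at -0.33 (edgeR FDR = 0.0504) and was not called. The antisense gene Gm38287 covers 79.43% of its exon bases, so without strand this value could hold reads of either gene.

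Other genes listed as targets moved both ways, and most are also driven by other pathways. Sox9, a transcription factor of cholangiocytes and progenitor cells, rose 3.43-fold (3.25 ± 1.16 to 11.2 ± 2.07 CPM) with all 12 MCD livers above every control. The cell cycle inhibitor Cdkn1a rose 5.16-fold (an opposite gene model covers 7.68% of its exon bases) and Id1 rose 2.15-fold. Gata2 fell 1.91-fold, and Efnb2, an arterial endothelial ligand, was also called lower. So was Hes6, a Hes family gene on this list, and whether Notch induces it was not tested. Ccnd1 (0.31), of whose exon bases LTO1 covers 23.36% on the opposite strand, and Myc (0.17) were not called.

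**Figure D5:**
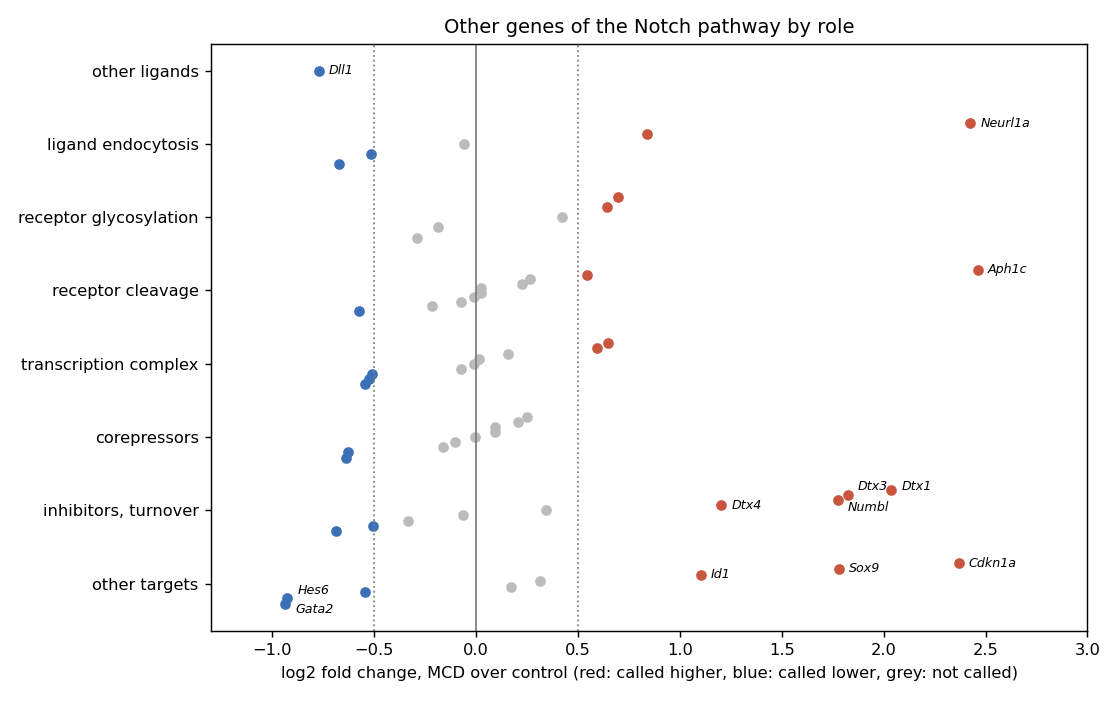
Log2 fold change of MCD over control (horizontal axis) for the 56 tested genes of the further pathway list, in 1 line per role, with red points called higher, blue points called lower, grey points not called and dotted lines at 0.5 and -0.5. Points beyond 1 are all on the higher side and include Neurl1a (2.43), Aph1c (2.46), Dtx1 (2.04) and Cdkn1a (2.37).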

How the data were processed

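Poly(A) RNA of 24 whole livers was sequenced, 12 per diet. The authors deposited raw read counts per Ensembl gene, 1 column per library, with 56205 rows, of which 28652 were 0 in every library. Per the submitters' processing notes, reads were demultiplexed with bcl2fastq and aligned to mm10 with STAR 2.7.3a. The study's supplement names a stranded library kit (Illumina TruSeq Stranded mRNA), without saying whether it served the mouse libraries, and quantification with the exon quantification pipeline and PISCES for reads aligned to the human genome. For the mouse libraries the counting program and whether it used strand are not given in the sources used here. Names, positions and exon lengths came from GENCODE mouse release M21 (GRCm38), which named 51745 rows; 4460 rows carry identifiers outside that release, and unnamed rows held 0.0808% of counts.

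Genes were kept with filterByExpr by diet, leaving 14109. edgeR 4.0.16 (R 4.3.3; TMM, glmQLFit, glmQLFTest, no covariate) compared MCD with control, with Benjamini-Hochberg adjustment over all genes; the limits are those the study applied to human liver. SE is the absolute log2 fold change over the square root of F. The biological coefficient of variation was 26.8%. Correlations used log2 CPM with a prior count of 2 and permutation tests (scipy 1.17.1, numpy 2.4.6, pandas 2.3.3, Python 3.11.15). Figures used matplotlib 3.10.9. Levels under 3 counts were taken as unresolved, for counting error only. The fits were tested on simulated counts.

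The members, role lists, marker lists and tests were chosen with earlier results of these data known. Any listed pathway gene could be named; values were given for all members, for the called genes with the largest fold change in each role list (up to 4), for uncalled defining genes, and for the 3 genes per member of at least 1 mean CPM with the highest diet-centred correlation. Alternatives were relative log expression, upper-quartile or no factors, no filter, 10 counts in every library, DESeq2 1.42.0, limma-voom (limma 3.58.1), the replicate number as a block, a covariate from sex-linked genes (used only as a number), a log2 limit of 1, an FDR of 0.05 with any fold, and each library left out.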

Additional observations from a re-analysis of the deposited data

How the results depend on the processing

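Members lower numbered 2 with upper-quartile factors, relative log expression factors or at least 10 counts in every library, 3 with DESeq2, 1 with total counts and 0 with a log2 limit of 1, at which 2 were higher. Further pathway genes lower numbered 8 (relative log expression), 5 (upper quartile), 2 (total counts), 9 (no filter), 7 (at least 10 counts), 8 (DESeq2), 9 (replicate block) and 0 (log2 limit of 1, with 9 higher). Over all genes, total counts gave 4539 higher and 848 lower, upper-quartile factors 1710 lower, at least 10 counts 1801 higher, a log2 limit of 1 686 lower, and an FDR of 0.05 at any fold 5221 lower. The median of all log2 fold changes, -0.10 in the main fit, was 0.27 with total counts and 0.05 with upper-quartile factors. It was -0.04 with relative log expression factors or DESeq2, 0.02 with no filter, and -0.07 with at least 10 counts or the replicate block. The cause of the changed numbers was not tested.

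Leaving out each library gave 4 to 4 members higher, 2 to 4 members lower (2 without control replicate 3, MCD replicate 2 or MCD replicate 7), 14 to 15 and 7 to 14 further pathway genes higher and lower (9 or fewer lower without control replicate 3 or MCD replicates 2, 5, 6, 7, 8 or 12), and 2701 to 3052 and 2228 to 2812 genes higher and lower in all. Of 240 values of single members, 230 kept their call and direction, and 10 of Notch2 or Notch4 passed below a limit. Of 109 values under the other alternatives, 92 kept both, 16 passed below a limit, 1 (Notch3, total counts) passed above it, and 0 changed sign. Jag2 did not pass the filter of at least 10 counts. The relation of Jag1 with Hes1 in control turned to 0.481 with total counts. Leaving out 1 liver, it ranged from -0.3 to 0.165 in control (positive without control replicate 12) and from -0.173 to 0.357 in MCD (negative without MCD replicate 1). Notch3 with Heyl ranged from 0.695 (without control replicate 4, no longer past the adjusted threshold) to 0.89 in control and 0.458 to 0.567 in MCD. Notch4 with Dll4 ranged from 0.743 to 0.922 in control and from 0.093 (without MCD replicate 2) to 0.717 (without MCD replicate 8, then past the adjusted threshold) in MCD.

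Whether replicate numbers pair the livers is not stated in the labels and was not tested. Same-numbered control and MCD livers correlated at -0.28 to 0.349, with 8 of 12 pairs over 0.1. Of 24 libraries, 3 correlated best with their own number. With the number as a block 4 members were higher and 4 lower.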

Other observations

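The genes whose levels followed each Notch gene most closely from liver to liver, after the mean of each diet was removed, were looked up over 24 libraries by Pearson correlation of log2 CPM. These correlations are descriptions without a test, and the libraries share depth and scaling. Among the receptors, Notch1 was closest to Spata13 (r = 0.883), Zmynd8 (0.880) and Notch2 (0.876), Notch2 to Snx30 (0.923), Erbb3 (0.921) and Tnrc18 (0.917), Notch3 to Notch4 (0.818), Myh9 (0.815) and Bahd1 (0.809), and Notch4 to Myh9 (0.836), Lamc1 (0.835) and Bahd1 (0.829). Notch3 and Notch4 therefore followed each other across livers, with Myh9 and Bahd1 in common, although their diet differences had opposite signs (0.36 and -0.55).

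For the ligands, Dll4 was closest to Oit3 (0.865), a gene of liver sinusoidal endothelium, followed by Cyp4a31 (0.776) and Adrb1 (0.759). Jag1 was closest to Gnb5 (0.802), Nck2 (0.779) and Schip1 (0.778), all 3 called higher in MCD livers, and Jag2 to Zfp618 (0.748), Kif1a (0.680) and Btg3 (0.677). Of the targets, Heyl was closest to Ppl (0.825), Prelp (0.818) and Bahd1 (0.802), Hey1 to Cdc42se1 (0.802), Tlr2 (0.776) and Ly6d (0.768), and Hes1 to Podn (0.698), Nek8 (0.681) and Fgfr2 (0.644), the loosest likeness of the 10.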
